A study of Sus scrofa with 6 samples.

Results

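Loci without an Ensembl identifier were analysed in the transcriptome of differentiating porcine satellite cells (PSCs). The authors named them Novel00001 to Novel02944. All rows named in this way were taken, which gave 2944 unannotated loci of the 28266 rows deposited, beside 25322 rows with an Ensembl identifier. Of the Ensembl rows, 11804 could be paired with a gene symbol and 13518 could not.

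RNA-seq of 6 libraries was examined, 3 from cells at 24 h of differentiation (24h) and 3 from cells at 36 h (36h), as replicates 4, 5 and 6 of each. For the second time point the labels of the samples read 48 h, but 36 h stands in the series title and in the study's methods and is used here. The cells were muscle satellite cells of 3-day-old male Yorkshire pigs, switched to horse serum to differentiate. All 6 libraries were assigned to the negative control (NC) siRNA by the letter N in their titles, since no label names the transfection. Under that assignment both groups share the siRNA and differ in the labelled time. The 36h libraries were also sequenced more deeply. Cells treated with siRNA against H19 were not analysed here. Nothing in the labels says whether the 3 libraries of a group came from separate animals or cultures, so p-values measure the spread between these libraries, which may be technical.

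Satellite cells are the stem cells of skeletal muscle. On differentiation they leave the cell cycle, switch on genes of the contractile apparatus and fuse into myotubes. When reads are assembled against a genome, some transcripts fall outside every annotated gene. Such a locus can be a separate gene, coding or non-coding, or a stretch of a known gene that the annotation lacks, for example an extended end. The files give no position, strand or sequence for these loci, so none is printed, no gene can be placed beside them, and which of these kinds each locus is was not tested.

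The values are FPKM, the fragments of a row scaled to its length and to the counted fragments of the library. Within a row they moved in equal steps of 1 fragment, and from these steps the fragments and the length behind the rows were recovered. This worked for 2842 of the 2842 unannotated loci above 0 in at least 3 libraries, with no fragment number farther than 9.28e-05 from a whole number. The search took only lengths that gave nearly whole fragments in every library, so that distance was limited by the search itself. The totals implied by the steps ran from 16382890 to 16908165 fragments per library at 24h and from 18015798 to 21896353 at 36h. For a row of 1 kb, 1 fragment was worth between 0.0457 and 0.0610 FPKM. Of the 10 skeletal muscle markers looked for, 7 could be paired with a row by their symbol. CKM, TNNT3 and PAX7 could not, so nothing is known of their levels. Each of the 7 stood at an FPKM of at least 1 in every library. Their sum ran from 2966 to 5559 at 24h and from 11731 to 13392 at 36h. The sum was carried by ACTA1, MYH3, DES and MYMK, while the early regulators MYOD1 and MYF5 went from means of 316 and 84.7 to 254 and 59.9. The lowest sum was in 24h replicate 6, which stood apart from the other early libraries. The extraction label speaks of endometrium. Of 9 endometrial epithelium markers looked for, 7 were paired in this way. Of these, 6 stayed below an FPKM of 1 in every library, and PGR and KRT8 were at 0. The exception was CDH1, an adhesion protein of epithelia, with a mean of 0.318 at 24h and 3.63 at 36h. Of 8 fibroblast markers looked for, 4 were paired. The sum of these 4 ran from 227 to 296 at 24h and from 394 to 534 at 36h, and its members moved apart. COL3A1, a collagen gene, went from a mean of 241 to 443, whereas DCN went from 18.8 to 6.12, LUM from 5.51 to 1.83 and PDGFRA from 0.486 to 0.0859. PTPRC and HBB, markers of blood, were at 0, and the endothelial marker PECAM1 stood between 1.01 and 1.67. The part of other cells in the values of the unannotated loci was not tested, and in bulk samples fewer cells of a type and less RNA per cell cannot be told apart.

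Most unannotated loci were detected in every library, at low levels. An FPKM above 0 in all 6 libraries was found for 2737 loci (93.0%), against 58.2% of the Ensembl rows. In contrast, 77 loci (2.62%) were at 0 in all 6 libraries, against 6575 Ensembl rows (26.0%). Assembled loci are listed because reads fell on them, whereas Ensembl rows come from an annotation that also holds silent genes. The part of this in the higher detection was not tested. The replicates 4, 5 and 6 held 2820, 2818 and 2809 detected loci at 24h and 2829, 2828 and 2822 at 36h. On average 2816 ± 5.86 loci were detected in an early library and 2826 ± 3.79 in a late one (SD, n = 3), and the late libraries were the deeper ones. The difference had p = 0.1 in a two-sided exact permutation test, the smallest p that 3 against 3 libraries allow. At an FPKM of at least 1 the order turned, with 1751, 1774 and 1837 loci at 24h and 1792, 1763 and 1752 at 36h, and the groups overlapped.

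The median of the mean FPKM over the 6 libraries was 1.57 for the unannotated loci, with quartiles of 0.585 and 5.18. It was 0.746 for the Ensembl rows, 0.0468 for those without a symbol and 5.11 for those with one. The unannotated loci were thus gathered in the middle of the range. They numbered 971 between 0.1 and 1, 1377 between 1 and 10, 390 between 10 and 100, and 53 at 100 or over. The upper quartile of the Ensembl rows, at 10.6, lay above that of the unannotated loci. How the sets were made may bear on these levels as well, and its part was not tested.

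**Figure D1:**
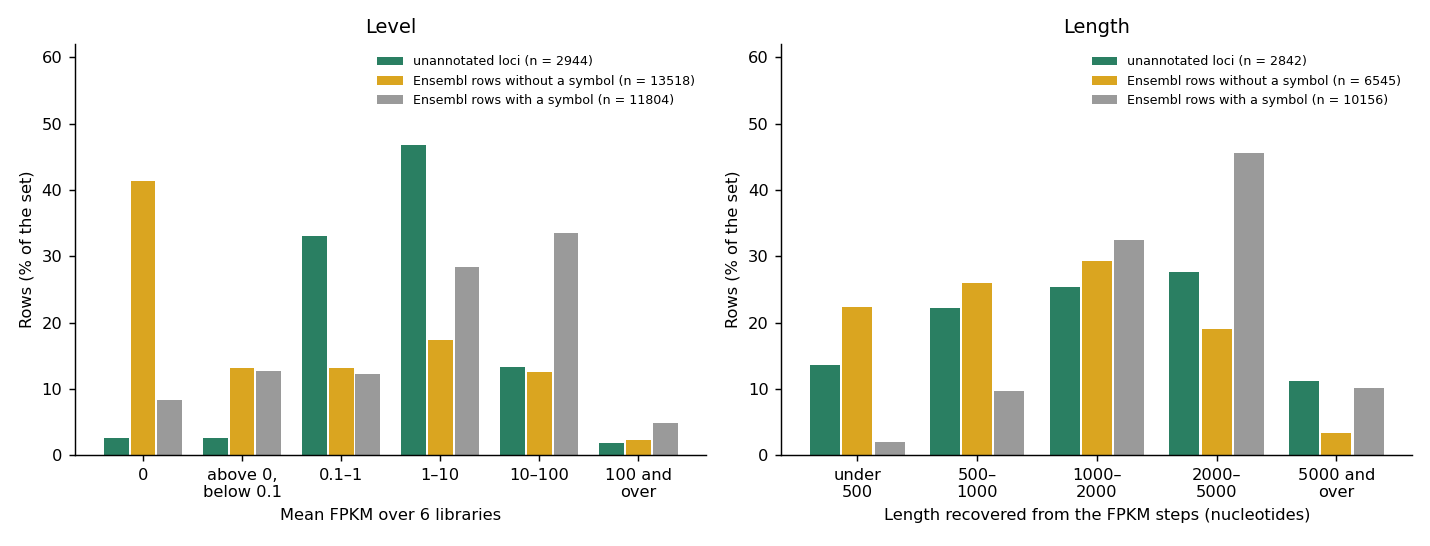
Share of rows (%) in classes of mean FPKM over the 6 libraries (left) and of recovered length in nucleotides (right) for unannotated loci, Ensembl rows without a symbol and Ensembl rows with a symbol, with the number of rows of each set in the legend. Unannotated loci, which are listed because reads were assembled, are rarely at 0 (2.62%). They are most frequent between 1 and 10 FPKM (1377 of 2944), whereas their lengths spread over all 5 classes.

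The recovered length of the unannotated loci ran from 105 to 43247 nucleotides with a median of 1467.5 and quartiles of 745 and 2973. The median over the Ensembl rows was 1725. The recovered length is the smallest whole length that gives whole fragments in every library, so a locus whose fragments share a common factor in all libraries is given a length that is too short. The lengths were spread more widely than those of the Ensembl rows, except at the very shortest. Lengths under 500 were found for 386 loci (13.6%, Ensembl rows 9.99%, those without a symbol 22.3%), and lengths of at least 5000 for 320 (11.3%, Ensembl rows 7.53%). At least 10000 nucleotides were reached by 73 unannotated loci and by 72 of the 16701 Ensembl rows with a recovered length. Under 200 nucleotides were 35 of the 2842 loci and 546 of the 16701 Ensembl rows. RNAs shorter than that are usually not called long non-coding RNAs. A length that is a multiple of 3 was found for 32.4% of the unannotated loci and for 44.2% of the Ensembl rows.

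A few loci carried a large part of the signal. The highest locus held between 8.76% and 9.66% of the summed FPKM of the unannotated loci in a library, the 10 highest between 29.3% and 32.0%, and the 100 highest between 60.7% and 63.1%. Over all rows deposited, 4 of the 100 rows, 24 of the 500 rows and 55 of the 1000 rows of highest mean FPKM were unannotated. Novel02570, with a length of 412 nucleotides, ranked 9 among all 28266 rows. Its FPKM was 2790, 2965 and 3170 at 24h and 3060, 3031 and 3010 at 36h, so the groups overlapped. Novel02568, of 480 nucleotides and only 2 numbers away, ranked 14. It stood at 2105, 2335 and 2397 at 24h and at 2546, 2552 and 2741 at 36h, with a difference of 0.20 ± 0.09 (SE) on the log2(FPKM + 1) scale that did not pass the test (limma, adjusted p = 0.108). It did under median-ratio scaling (0.38, adjusted p = 0.0120) and without 24h replicate 6 (0.24, adjusted p = 0.0499), both in limma.

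Several of the next loci in level changed between the times. Novel02555 (343 nucleotides, rank 74) stood at 1205, 1187 and 1296 at 24h and at 701, 803 and 775 at 36h. All 3 late values were below all early ones, and the fall was 0.70 ± 0.08 (SE) on the log2 scale with an adjusted p of 0.00148 in limma. Novel02741 (218 nucleotides, rank 88) moved the other way. It rose from 470, 519 and 462 to 967, 1367 and 1648, a log2 change of 1.42 ± 0.19 (SE) with an adjusted p of 0.00187 in limma. Novel02730 (360 nucleotides) rose from 408, 329 and 319 to 502, 636 and 682. Novel00672 (1171 nucleotides) stood at 553, 563 and 599 at 24h and at 509, 560 and 627 at 36h, with overlapping groups. Novel02816 (339 nucleotides), among the largest falls, went from 345, 441 and 672 to 134, 153 and 198. The other loci among the 10 highest were Novel01015 and Novel02733, which rose by 0.32 and 0.29 on the log2 scale and lost the call when 36h replicate 5 was left out (adjusted p = 0.0661 and 0.0542 in limma), and Novel02839, with a change of 0.11 and an adjusted p of 0.321 in limma, or 0.28 and 0.0410 under median-ratio scaling.

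The share of unannotated loci was higher in each 36h library than in each 24h library. Their share of the recovered fragments was 4.87%, 4.84% and 4.85% at 24h and 5.61%, 5.45% and 5.29% at 36h. The groups did not overlap, and the means were 4.85% ± 0.0137 (SD, n = 3) and 5.45% ± 0.156 (SD, n = 3). The two-sided exact permutation test gave p = 0.1, the smallest value that this design allows. In summed FPKM the share was 5.27%, 5.35% and 5.61% at 24h and 5.67%, 5.74% and 5.81% at 36h, again without overlap and with p = 0.1 in the same exact test.

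Most of that difference in fragments lay in 1 locus. Novel00945 has a recovered length of 22230 nucleotides, and 10.3% of all fragments of unannotated loci fell in it. It held 58560, 50692 and 29971 fragments at 24h and 173460, 162717 and 111152 at 36h. Its FPKM rose from 156, 139 and 81.9 to 375, 334 and 278, a log2 change of 1.42 ± 0.24 (SE) with an adjusted p of 0.00409 in limma. All late libraries exceeded all early ones, and 24h replicate 6 was the lowest. As a share of all fragments, Novel00945 went from 0.280% ± 0.0864 to 0.733% ± 0.109 (SD, n = 3). Without it, the share of the unannotated loci was 4.59% ± 0.0794 at 24h and 4.75% ± 0.0546 at 36h (SD, n = 3). The difference between the groups was 0.594 percentage points with Novel00945, of which the locus itself made 0.453, and 0.163 without it, and p was 0.1 in the exact permutation test both times.

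**Figure D2:**
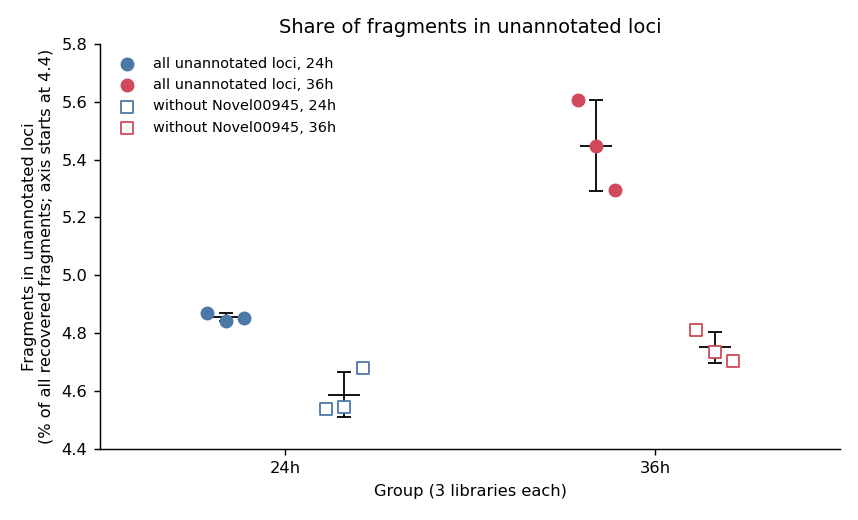
Fragments in unannotated loci as a share of all recovered fragments (%, axis from 4.4) at 24h and 36h, with all loci (filled points) and without Novel00945 (open squares); each point is a library and the bars are the mean and SD of 3 libraries. With all loci the groups stand at 4.85% and 5.45%, and without Novel00945 at 4.59% and 4.75%.

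The comparison of the groups asked which unannotated loci change as differentiation proceeds. Rows with a mean FPKM of at least 1 were tested in a single fit over the whole table. That was 1820 of the 2944 unannotated loci (61.8%) and 12240 Ensembl rows (48.3%). At the edge of this limit, Novel01692 and Novel02895 (mean FPKM 0.9986 and 0.9995) were not tested, whereas Novel02349 and Novel01592 (1.001 and 1.002) were. An adjusted p under 0.05 in limma was reached by 807 unannotated loci (44.3%), of which 426 rose (23.4%) and 381 fell (20.9%). Over all 14060 rows tested the share was 50.9%, with 16.5% higher and 34.4% lower. Among the Ensembl rows it was 51.9% (15.5% higher, 36.4% lower), and among those without a symbol 47.8% (14.8% higher, 33.1% lower). The share of unannotated loci that changed was thus below the background, and the rises were above it. With rows of a mean FPKM of at least 5 alone, the shares were 57.9% for the unannotated loci and 57.2% for the Ensembl rows, so the first of these does not hold there. With no filter the shares were close as well, 33.5% and 33.7% in that order.

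Rises made up 52.8% of the calls among the unannotated loci and 29.9% among the Ensembl rows. This split depends on the scaling. With median-ratio scaling of the libraries 540 loci rose and 259 fell, and with quantile normalization 544 rose and 273 fell. Rises were then 67.6% and 66.6% of the calls, against 49.7% and 43.3% among the Ensembl rows. As deposited, the median log2 change was -0.013 for the unannotated loci, -0.17 for the Ensembl rows and -0.16 for all rows. It was 0.12, -0.019 and -0.0033 in that order with median-ratio scaling, and 0.13, -0.056 and -0.036 with quantile normalization. Under each of these scalings the unannotated loci had the higher median and the larger part of rises, which is a description of the rows and not a test.

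Nearly all called rows separated the groups, among the unannotated loci as over the whole table. Of the 1820 tested loci, 1039 (57.1%) had no overlap between the groups, against 63.6% of all rows, and 806 of the 807 called loci were among them. Over all rows, 7136 of the 7156 called had no overlap, so this is no trait of the unannotated loci. An adjusted p under 0.05 together with a log2 change of at least 1 in either direction was found for 181 loci (9.95%, all rows 8.36%). Of these, 106 rose (5.82%, all rows 3.60%) and 75 fell (4.12%, all rows 4.77%). The limma voom fit of the recovered fragments called 822 loci (45.2%, all rows 51.5%), of which 762 were among the 807. The depth differed between the sets. The median tested unannotated locus rested on 623 fragments over the 6 libraries, and the median tested Ensembl row on 2404.5.

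**Figure D3:**
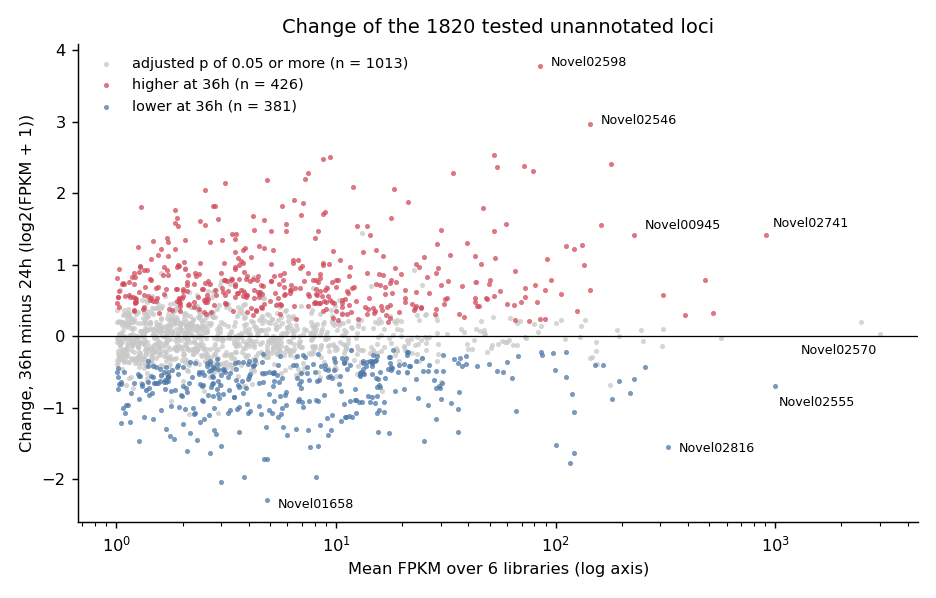
Change between 24h and 36h (36h minus 24h on log2(FPKM + 1)) of the 1820 tested unannotated loci against their mean FPKM over 6 libraries (log axis); red points rose and blue points fell at an adjusted p under 0.05. The 426 rises reach a log2 change of 3.78 (Novel02598) and the 381 falls reach -2.29 (Novel01658).

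The share of called loci rose with the level. It was 28.7% between 1 and 2 FPKM, 41.3% between 2 and 5, 49.0% between 5 and 10, 63.1% between 10 and 50 and 63.6% at 50 and over. Among the Ensembl rows the same classes gave 34.9%, 44.7%, 53.3%, 56.6% and 58.4%. The order of the sets thus turned above 10 FPKM, where more of the unannotated loci were called. Rises were between 47.2% and 61.8% of the calls in each class for the unannotated loci and between 20.5% and 44.6% for the Ensembl rows. In classes of length the share of called loci was lowest under 500 nucleotides, at 38.2%. It was 45.3%, 47.4%, 43.5% and 48.0% in the longer classes, in order of length. The Ensembl rows had 41.1% under 500 nucleotides and 60.2% at 5000 and over.

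On the log2(FPKM + 1) scale, which shrinks changes that reach values under 1 FPKM, the 12 largest rises among the called loci without overlap had log2 changes between 2.20 and 3.78, lengths between 285 and 2250 nucleotides and between 1158 and 14005 fragments. Novel02598 (298 nucleotides) rose most on this scale, and Novel01455, at 0 in all early libraries, ranked above it with pseudocounts of 0.1 and 0.01 and with voom. The FPKM of Novel02598 was 20.4, 14.7 and 3.06 at 24h and 199, 157 and 112 at 36h, a log2 change of 3.78 ± 0.60 (SE) with an adjusted p of 0.00314 in limma. The early libraries differed among themselves, with replicate 6 the lowest, but all stayed far below the late ones.

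Novel02546 (505 nucleotides) rose from 55.7, 41.1 and 12.3 to 269, 268 and 211, a log2 change of 2.97 ± 0.50 (SE). Novel02605 (1232 nucleotides) rose from 24.3, 18.9 and 6.02 to 94.6, 96.0 and 73.7. Novel02637 (2192 nucleotides) rose from 26.9, 22.3 and 6.90 to 98.6, 94.0 and 74.8. In all of these the order of the early libraries was the same, replicate 4 above 5 above 6. Novel02822 (1204 nucleotides) rose from 3.14, 2.74 and 0.807 to 14.8, 15.1 and 19.5, and here the highest late value was in replicate 6. Novel02645 (1095 nucleotides) had the smallest SE of the 12, with 2.27, 2.23 and 1.28 at 24h and 17.3, 18.8 and 10.6 at 36h, a log2 change of 2.48 ± 0.24 (SE) and an adjusted p of 0.000928 in limma.

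Novel02433 and Novel02434, with adjacent numbers and lengths of 474 and 530 nucleotides, rose side by side. Novel02433 went from 91.1, 69.3 and 25.2 to 338, 313 and 241. Novel02434 went from 39.8, 28.1 and 8.82 to 139, 115 and 99.5. The log2 changes were 2.41 and 2.38. The other 4 of the 12 were Novel02814, Novel02893, Novel01167 and Novel01292, with log2 changes of 2.31, 2.28, 2.28 and 2.20. Of the 12, 10 carried a number above 2400, as did 6 of the 12 largest falls and 424 of the 1820 tested loci (23.3%).

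The 12 largest falls on the same scale had log2 changes between -2.29 and -1.54. Novel01658 (453 nucleotides) fell most there, whereas Novel00749, which is not among the 12, fell more with a pseudocount of 0.01 (-3.56 against -3.24) and with voom (-3.37 against -3.19). The FPKM of Novel01658 was 6.01, 7.14 and 13.1 at 24h and 0.531, 0.907 and 1.35 at 36h, a log2 change of -2.29 ± 0.29 (SE) with an adjusted p of 0.00164 in limma. Novel01658 rested on 197 fragments at 24h and 25 at 36h. Low counts were found in many of these loci. Novel02882 (749 nucleotides) fell from 4.03, 5.79 and 6.41 to 0.321, 0.549 and 0.815, and Novel00608 (449 nucleotides) from 4.74, 5.85 and 9.47 to 0.535, 0.915 and 1.36. Both rested on 25 fragments at 36h.

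More abundant loci were also among the falls. Novel02817 (758 nucleotides) fell from 134, 153 and 259 to 46.2, 46.7 and 58.4, with 6839 fragments at 24h and 2301 at 36h. Novel02791 (204 nucleotides) fell from 141, 150 and 268 to 50.2, 58.2 and 62.6. Novel00063 (9510 nucleotides) had the lowest adjusted p of the 12, 0.000586 in limma, with 10.3, 12.2 and 12.9 at 24h and 3.30, 3.33 and 3.55 at 36h. Its log2 change was -1.54 ± 0.10 (SE). The groups did not overlap in any of the 12, since the choice required it. Novel02608, Novel00131, Novel02441, Novel00748 and Novel00262 had log2 changes of -1.96, -1.72, -1.71, -1.64 and -1.60.

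In each of the 12 rises and each of the 12 falls, 24h replicate 6 was the early library farthest from the late group. Over all called loci it was the lowest early library in 60.6% of the rises and the highest in 68.5% of the falls, against 58.5% and 66.9% among the Ensembl rows. The muscle marker sum stood at 5559, 4832 and 2966 in 24h replicates 4, 5 and 6, so the same library was the lowest there. The part of this in the changes was not tested. Without it the changes ran from 1.75 to 3.06 for the 12 rises and from -1.99 to -1.21 for the 12 falls, and all 24 kept an adjusted p under 0.05 in limma, with 0.0234 as the highest. Over all tested loci 810 were then called (44.5%, Ensembl rows 53.3%), 730 of which were among the 807.

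**Figure D4:**
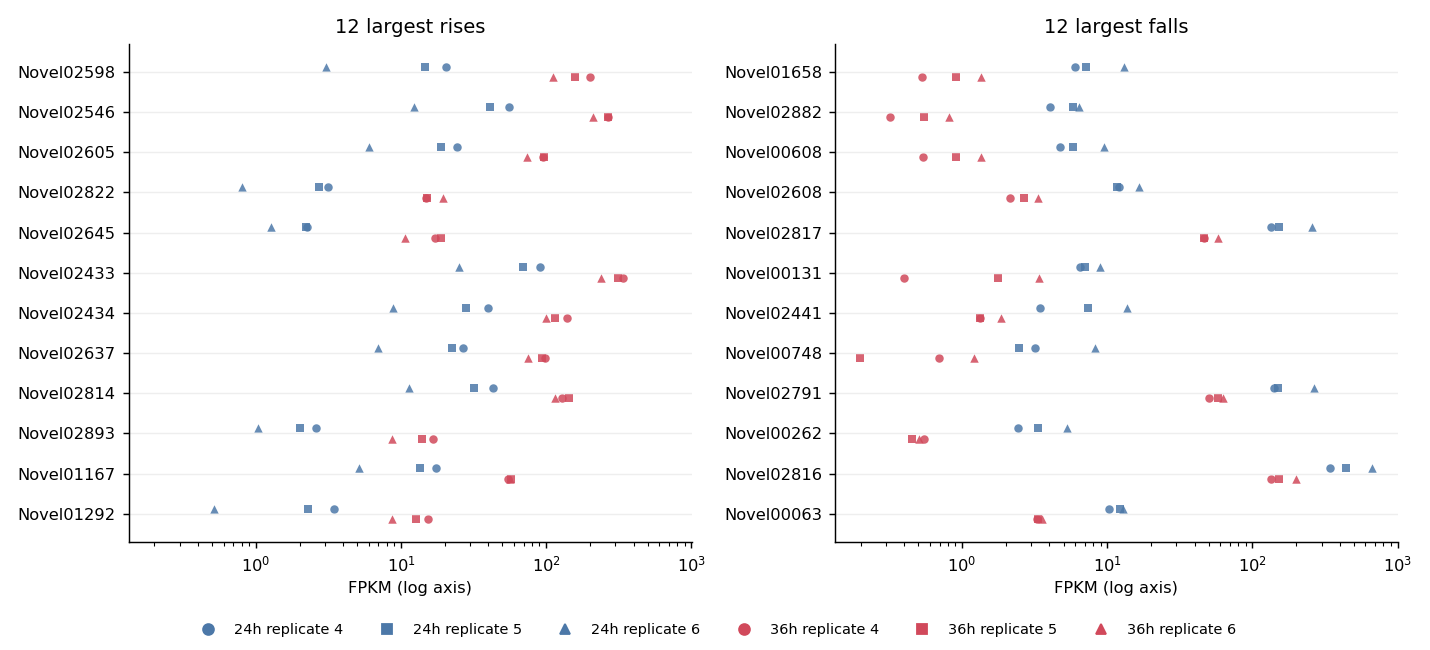
FPKM (log axis) of the 12 largest rises and the 12 largest falls among the unannotated loci, each symbol a library, with 24h in blue and 36h in red and circles, squares and triangles for replicates 4, 5 and 6. The groups do not overlap in any locus, and the 24h triangle (replicate 6) is the early library farthest from the late ones in each, for example 3.06 beside 20.4 and 14.7 in Novel02598.

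Few loci were present in 1 group alone. At 0 in all 24h libraries and above 0 in all 36h libraries were 3 of the 2944 unannotated loci and 56 of the 25322 Ensembl rows. The opposite pattern was shown by 0 unannotated loci and 47 Ensembl rows. The sets differ in size, so the numbers do not compare directly. Novel01455 (509 nucleotides) held 39, 26 and 16 fragments at 36h. Against a limit of 3 fragments over the early group, its level was at least 22.1-fold higher at 36h, and its adjusted p was 0.00132 in limma. Novel01455 was chosen for these values and passed the FPKM limit through the 36h group alone, so that p is no separate support. Novel01114 (273 nucleotides) held 9, 11 and 6 fragments and Novel00814 (219 nucleotides) 8, 7 and 2, which is at least 7.10-fold and at least 4.64-fold higher. Both lay under the FPKM limit and were not tested. These limits cover counting error only.

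The longest and the shortest tested loci were looked at for themselves. Novel00717 (27109 nucleotides) stood at 2.28, 2.18 and 2.02 at 24h and 2.58, 2.62 and 2.02 at 36h, and Novel00800 (22820 nucleotides) at 1.23, 1.35 and 1.31 and 1.39, 1.42 and 1.17. The groups overlapped in both. Novel01305 (22371 nucleotides) was lower at 36h in all libraries, 4.30, 4.21 and 3.75 against 3.49, 3.20 and 3.39, with an adjusted p of 0.0806 in limma. Its log2 change of -0.22 was -0.28 with voom (adjusted p = 0.0182), -0.27 without 24h replicate 6 (adjusted p = 0.0407 in limma) and -0.036 with quantile normalization (adjusted p = 0.805 in limma). Of the 41 tested loci of at least 10000 nucleotides 8 rose and 10 fell, and of the 50 Ensembl rows of such length 7 rose and 24 fell. Among the shortest, Novel02404 (105 nucleotides) rested on 36 fragments in all and its groups overlapped. Novel02801 (111 nucleotides) fell from 17.3 ± 6.48 to 7.31 ± 0.601 (SD, n = 3) with an adjusted p of 0.0108 in limma. Novel02705 (155 nucleotides) had an adjusted p of 0.0366 in limma on 52 fragments, and lost the call under 10 alternatives, among them voom (adjusted p = 0.158).

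Some abundant loci showed little difference between the times. Besides Novel02570 and Novel00672, these were Novel00239 with a mean FPKM of 255 ± 18.9 at 24h and 245 ± 24.8 at 36h, Novel00725 with 236 ± 21.7 and 252 ± 11.3, and Novel01264 with 194 ± 7.63 and 194 ± 6.35 (SD, n = 3). They were chosen for an absolute log2 change under 0.1. Under median-ratio scaling Novel00725 and Novel01264 rose by 0.27 and 0.18 with adjusted p of 0.0370 and 0.0442 in limma, and under quantile normalization Novel02570 fell by 0.42 with an adjusted p of 0.00859, so the lack of a change in them holds for the deposited scaling.

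Loci with adjacent numbers changed somewhat alike. Over 1213 pairs of tested loci whose numbers differ by 1, Pearson's r of the log2 changes was 0.16. It was 0.043 over 1189 pairs with a difference of 2, 0.021 at a difference of 3 and -0.049 at 10. In the row order of the table, which does not follow the numbers, it was 0.0014. Where both loci of an adjacent pair were called, 170 of 269 pairs (63.2%) changed in the same direction, against 55.5%, 52.0%, 55.8% and 54.0% at differences of 2, 3, 5 and 10 and 178 of 368 pairs (48.4%) in row order. All pairs share the same 6 libraries and loci occur in more than 1 pair, so these values are a description. The files do not say what the numbering follows.

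Most called loci stood alone in the numbering, 279 of the 426 that rose and 232 of the 381 that fell having no neighbour called in the same direction. Neighbours under the FPKM limit were not tested and counted as not called. Of all tested loci 23.4% rose and 20.9% fell, so many called loci would stand alone in any order. Other called loci formed runs of consecutive numbers. The longest run, Novel00902 to Novel00909, held 8 loci that rose, with log2 changes between 0.32 and 0.65 and lengths from 727 to 8944 nucleotides. Novel00902 rose from 2.52, 2.17 and 1.62 to 3.57, 3.79 and 3.43, and Novel00906 from 4.76, 4.91 and 4.92 to 6.20, 6.29 and 6.40. Of the 8 loci, 4 kept the call in every alternative. Novel00905, Novel00906, Novel00908 and Novel00909 lost it in at least 1, among them the fit without 36h replicate 5, with adjusted p in limma of up to 0.128.

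Novel00748 to Novel00752 held 5 loci that fell together, with log2 changes between -1.64 and -0.96. Novel00751 (1569 nucleotides) fell from 2.37, 2.53 and 6.97 to 0.766, 0.582 and 0.672, and Novel00749 (626 nucleotides) from 1.80, 1.85 and 3.40 to 0.154, 0.219 and 0.177. In all 5 the value of 24h replicate 6 was the highest of the 6. Without that library the log2 changes ran from -1.26 in Novel00749 to -0.64 in Novel00750, each with an adjusted p under 0.05 in limma. Novel00748, Novel00750 and Novel00752 lost the call without 36h replicate 5 (adjusted p = 0.0530, 0.104 and 0.0542 in limma). The run Novel00945 to Novel00949 began with the long locus described above, whose log2 change was 1.14 without 24h replicate 6. Novel00946 (4950 nucleotides) rose from 7.34, 5.31 and 3.63 to 15.4, 13.2 and 7.47, and Novel00947 (11536 nucleotides) from 29.5, 27.4 and 20.5 to 41.8, 35.5 and 34.2. Without 24h replicate 6 their changes were 0.79 and 0.37, with adjusted p of 0.0591 and 0.0207 in limma, and that of Novel00949 was 0.26 with an adjusted p of 0.0538. Novel00946, Novel00947 and Novel00949 lost the call in at least 1 alternative, among them the fits without 36h replicate 4 (adjusted p = 0.0912, 0.0763 and 0.0934 in limma). There were 2 more runs of 5, Novel02433 to Novel02437 and Novel02739 to Novel02743, both of loci that rose.

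**Figure D5:**
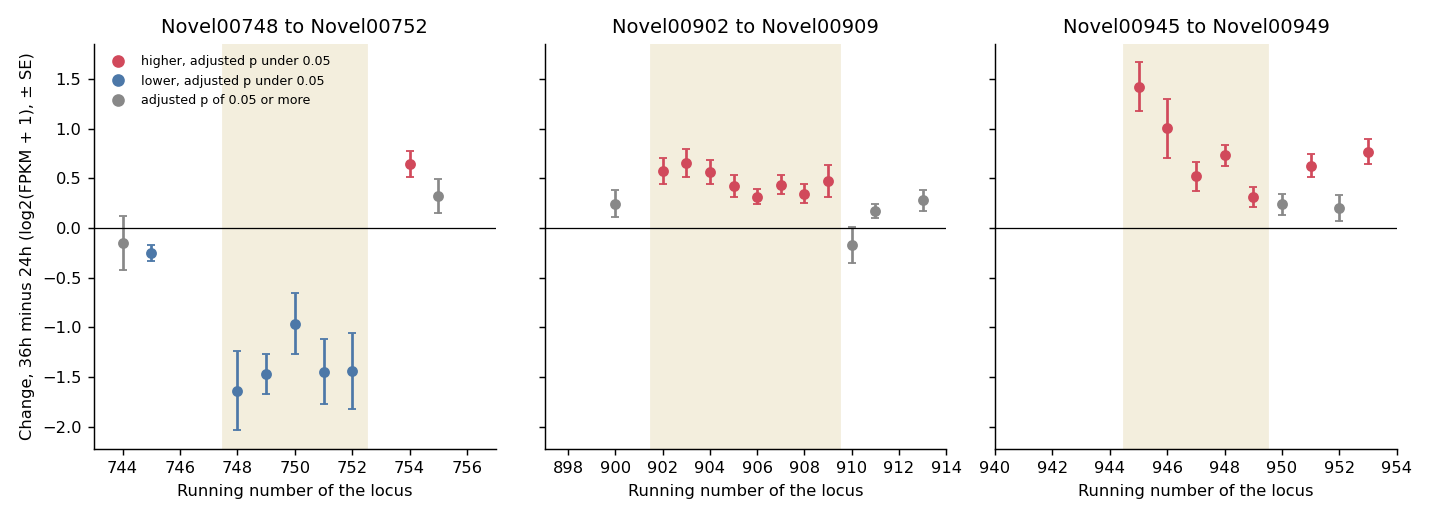
Change between 24h and 36h (36h minus 24h on log2(FPKM + 1), bars ± SE of the limma fit) of tested unannotated loci by running number around 3 of the longest runs, whose members are shaded (ties in run length taken by name). The 5 shaded loci on the left fell, and the 8 in the middle and the 5 on the right rose, each at an adjusted p under 0.05.

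The last loci of the numbering stood apart in level and length. Numbers 2501 to 2944 had a median mean FPKM of 3.31 and a median length of 752.5 nucleotides, and 76.6% of them were tested. In the 5 blocks of 500 before them the medians ran from 1.21 to 1.51 FPKM and from 1332 to 1866.5 nucleotides, and between 54.2% and 62.6% were tested. Of the 53 loci with a mean FPKM of at least 100, 25 were in that last block. The share of called loci was not higher there, 45.6% against 35.1% to 49.8% in the other blocks.

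The libraries were arranged by time over the tested unannotated loci. Pearson's r of log2(FPKM + 1) was between 0.956 and 0.989 for pairs of libraries of the same group and between 0.855 and 0.942 for pairs across groups, over 1820 loci that are not independent replicates. A principal component analysis put 77.9% of the variance on the first component, where 24h replicate 6 had the lowest loading, -0.61 beside -0.23 and -0.33 in 24h replicates 4 and 5, with 0.42, 0.42 and 0.33 at 36h. It was the library farthest from the others of its group in 53.7% of the tested loci, and in 59.5% of the Ensembl rows. The median SD within a group was 0.17 at 24h and 0.15 at 36h for loci between 1 and 2 FPKM, and 0.13 and 0.11 at 50 and over.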

How the data were processed

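RNA-seq libraries of PSCs assigned to NC siRNA at 24h and 36h, 3 per group, were used. The authors deposited one table of FPKM values, 1 column per library and none pooled. The study's methods name HISAT2, StringTie and HTSeq with the pig genome Sscrofa11.1, whereas the submitters' processing notes name TopHat2, Cufflinks and HTSeq, so the assembler of the unannotated loci is not settled. Strandedness, the annotation release and the rule that defined these loci are not given in the sources used here. Overlap with annotated genes could therefore not be examined.

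Whole fragments, integer lengths and library totals were recovered from the FPKM steps with Python 3.11.15 and numpy 2.4.6. The recovered fragments summed to between 99.7% and 99.8% of the totals. No count test was the main result. Rows with a mean FPKM of at least 1 entered a two-sided limma 3.58.1 fit (R 4.3.3, eBayes with trend) of log2(FPKM + 1) on the group, and p was adjusted over all 14060 rows by Benjamini-Hochberg (threshold 0.05). Changes are on the log2(FPKM + 1) scale, which understates those of low rows. Shares were compared with exact permutation tests (scipy 1.17.1). The fits and the recovery were tested on simulated data.

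Loci named in the text are the 12 rises and 12 falls of greatest size that passed the threshold without overlap, the 10 of highest mean FPKM, those at 0 in 1 group only, the 3 longest and 3 shortest tested, the 5 most abundant with an absolute log2 change under 0.1, the 3 per group with the largest range between libraries and the members of the 3 longest runs. Runs of equal length were taken in the order of their names. The loci and these lists were chosen with earlier results of these data known.

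The choices varied were the pseudocount (0.1, 0.01), the filter (none, mean FPKM of at least 5), the scaling (median-ratio, quantile), the trend in eBayes, the replicate block, each library left out, a log2 change of at least 1, and limma voom on recovered fragments. The fragment share without Novel00945 was added after the values were seen. No column was left unused.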

Additional observations from a re-analysis of the deposited data

How the results depend on the processing

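The count of called loci lay between 797 and 961 with other pseudocounts, no filter, either scaling, eBayes without trend and voom, and between 540 and 810 when 1 library was left out (290 to 432 higher, 250 to 379 lower). The lowest of these was the fit without 36h replicate 5, with 29.7% called against 35.5% of the Ensembl rows. The 961 came with no filter, where 2867 loci were tested. That was 33.5%, against 33.7% of the Ensembl rows. A mean FPKM of at least 5 left 437 (229 higher, 208 lower) of 755 tested, 57.9% against 57.2% of the Ensembl rows, and an added log2 change of at least 1 left 181 (106 higher, 75 lower). The median log2 change was 0.12 under median-ratio and 0.13 under quantile scaling, and ran from -0.030 to 0.013 when 1 library was left out, the highest without 24h replicate 6. The deviations of same-numbered libraries from the group means had r of 0.15, -0.016 and 0.18 for numbers 4, 5 and 6. Replicates 4 and 6 correlated best with their own number, and replicate 5 did not. With 3 libraries a group, these values cannot decide whether same-numbered libraries share an animal or culture. The replicate block called 781 loci (42.9%, Ensembl rows 51.1%), 417 higher and 364 lower, 728 of them among the 807. Among the named loci it ended the call of Novel00908 (0.34, adjusted p = 0.0543), Novel00949 (0.31, adjusted p = 0.0726) and Novel02705 (-0.46, adjusted p = 0.0633), all in limma. Detection at an FPKM of at least 0.1 gave means of 2722 and 2747 loci at 24h and 36h, and at least 1 gave 1787 and 1769.

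Of the 64 named loci that were tested, 49 were called, 36 kept the call in every alternative, and 0 of the called changed direction. Direction changed in 7 loci that were not called. Novel00239 had 0.12 and Novel00672 0.16 under median-ratio scaling. Under quantile normalization Novel01264 had -0.053 and Novel02570 -0.42. Novel02851 had -0.094 and -0.12 with pseudocounts of 0.1 and 0.01, and -0.20 with voom. When 1 library was left out, the changes ran from -0.098 to 0.053 in Novel00672, from -0.015 to 0.065 in Novel00800, from -0.027 to 0.029 in Novel01264, from -0.72 to 0.60 in Novel02481, from -0.015 to 0.077 in Novel02570 and from -0.67 to 0.50 in Novel02851, the lowest in Novel02481 and Novel02851 without 36h replicate 6. The cause was not tested. With 3 libraries a group, the exact permutation tests of shares and detection could not fall below 0.1.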

Other observations

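In some loci 1 library differed from the others of its group. Novel02481 (216 nucleotides) had an FPKM of 13.1 in 36h replicate 6, against 1.34 and 1.27 in the other late libraries and 4.11, 4.80 and 0.844 at 24h. Novel02851 (978 nucleotides) had 8.23 in the same library, against 0.836 and 1.35 in replicates 4 and 5, and 1.87, 2.31 and 2.79 at 24h. These values rested on 51 and 145 fragments. Without 36h replicate 6 the log2 change of Novel02851 was -0.67 with an adjusted p of 0.0353 in limma, whereas over all libraries it was 0.05 with an adjusted p of 0.951. Novel00803 (203 nucleotides) stood at 9.28 in 24h replicate 6 with 1.46 and 0.301 in the other early libraries, and at 0.474, 0 and 1.37 at 36h. Novel01638 (894 nucleotides) showed the opposite, 1.83 in 24h replicate 6 beside 12.4 and 8.60, with 17.4, 18.6 and 19.6 at 36h. Its groups did not overlap, but its adjusted p was 0.0572 in limma over all libraries and 0.00590 without 24h replicate 6.

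Besides Novel00945, a second long locus carried many fragments. Novel02931, of 16368 nucleotides, held 200702 fragments, 3.51% of those in unannotated loci, with a mean FPKM of 112. It was named after its value was seen.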
